A study of Homo sapiens with 6 samples.

Results

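Krüppel-like factors (KLFs) are DNA-binding proteins and their transcripts were measured here among the RNA bound to AGO2, an Argonaute protein that holds microRNAs on target transcripts. The 10 genes KLF2, KLF3, KLF4, KLF5, KLF6, KLF7, KLF9, KLF10, KLF11 and KLF12 were taken by symbol from the platform's probe table, where each had 1 probe set carrying that symbol alone. They were 10 of 18417 genes that could be named in this way. PC3, an established line of aggressive prostate cancer that grows without androgen, was transfected with miR-205 on 3 arrays and with a negative control mimic on the other 3. The series design describes the samples as biological triplicates, and all 6 arrays were AGO2 immunoprecipitates made with the same antibody (11A9). PC3 is 1 cell line, and input RNA was not analysed here. More or less of a transcript in the cells and more or less of it on AGO2 therefore cannot be told apart, nor can fewer cells and less RNA per cell. The series set out to identify targets of miR-205.

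KLF proteins bind GC-rich and CACCC-type elements through zinc fingers at their carboxyl ends, and the regions outside the fingers set whether a member activates or represses. KLF3 and KLF12 recruit the corepressor CtBP, KLF9, KLF10 and KLF11 recruit SIN3A, and KLF2, KLF4, KLF5, KLF6 and KLF7 act largely through acetyltransferase coactivators. Several members, KLF2, KLF4, KLF6 and KLF10 among them, are induced within a short time of growth factor, stress or TGF-beta signals. In prostate epithelium KLF5 and KLF6 are known as growth regulators that are often altered in tumours.

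The microRNA that was introduced is shown first, since the differences below compare arrays that received it with negative control arrays. The label names miR-205 without an arm, so both mature arms of the RefSeq entry (GRCh38.p14, plus strand, chromosome 1) are given, 5′ to 3′, with the seed (bases 2 to 8) in capitals.
hsa-miR-205-5p: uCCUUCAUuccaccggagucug
hsa-miR-205-3p: gAUUUCAGuggagugaaguuc
Seed matches in the KLF transcripts were not analysed here.

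With the miR-205 mimic 1 of the 10 genes, KLF12, was lower at an adjusted p under 0.05, 0 were higher and 9 did not pass (limma, Benjamini-Hochberg over the 18417 genes). Over all genes 14.0% were lower and 12.6% higher by the same rule, 26.6% in all. At an unadjusted p under 0.05, limma gave 3 KLF genes higher and 3 lower. Over all 18417 genes that unadjusted rule gave 3295 higher and 3670 lower, the background for each unadjusted count below. The median difference of the 10 genes was -0.01 on the log2 scale, and that of all genes was -0.02. For 6 of the 10 genes the 3 miR-205 values lay wholly above or below the 3 control values, against 42.2% of all genes. The count upward depended on 1 array. Without negative control replicate 2, KLF2, KLF6 and KLF10 rose and KLF12 fell, which made 3 higher and 1 lower, against 14.5% and 15.6% of all genes in that fit (30.1% in all). That array stood apart over the whole table: principal component 2 held 13.1% of the variance and placed it at -18.1, with the other 5 arrays between 0.20 and 7.68. Limma's array weights gave it 0.53, the lowest of the 6 (0.91 to 1.81 for the others). Medians of the 6 arrays lay between 7.82 and 7.85, and values below are log2 intensities as RMA gives them. Levels were not compared between genes, since each probe set has its own scale.

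**Figure D1:**
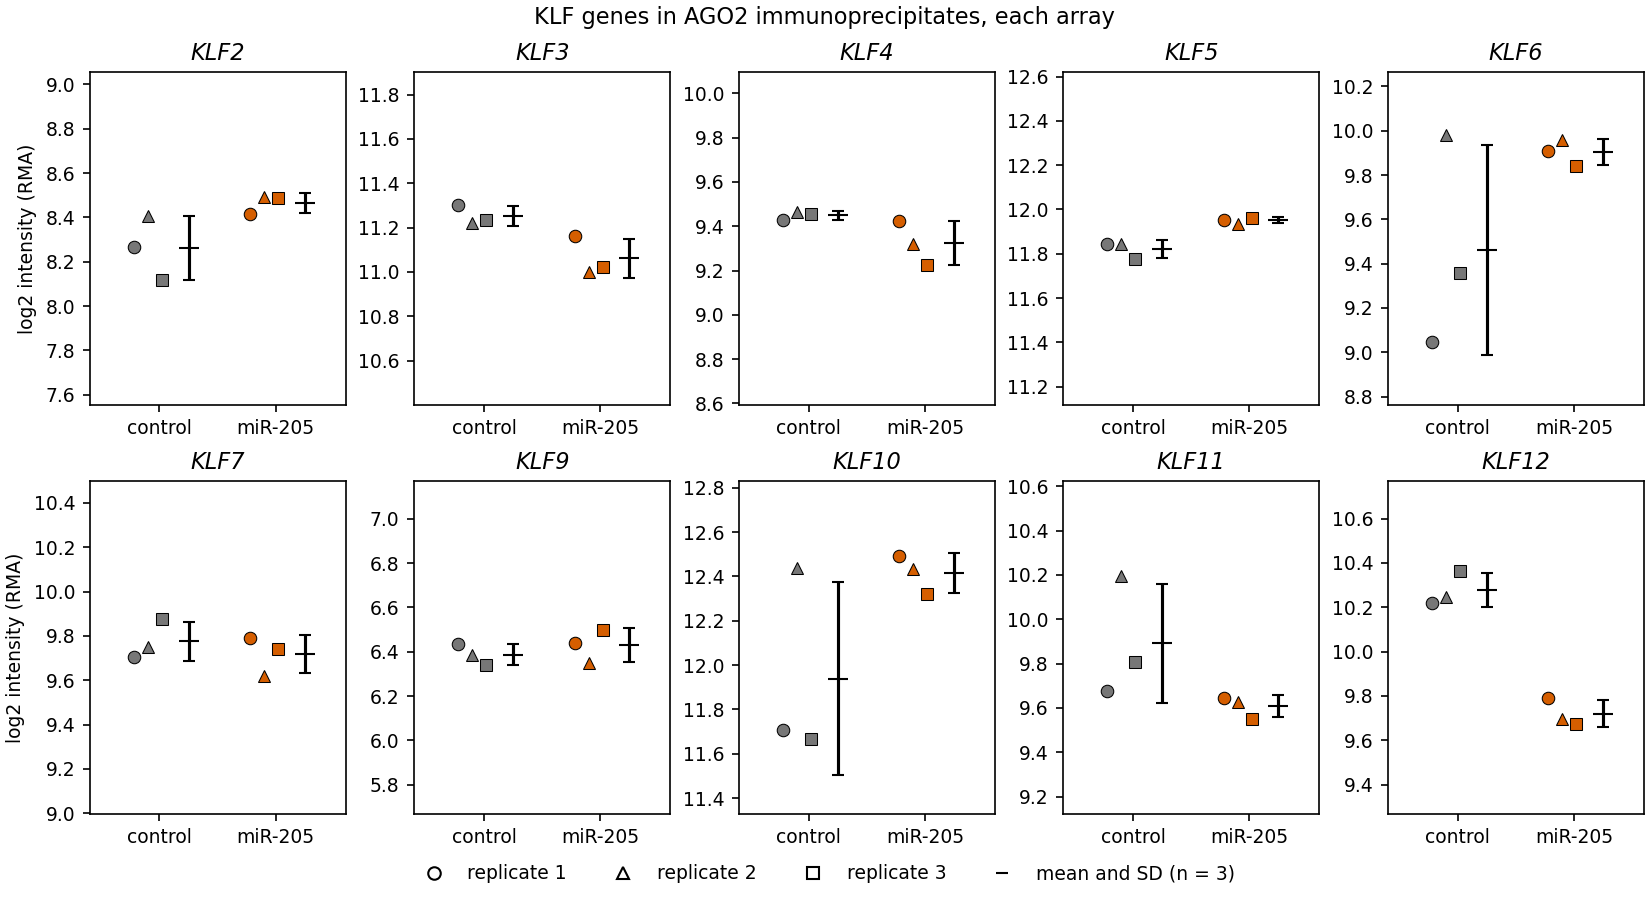
Log2 intensity (RMA) of each KLF gene on each of the 6 arrays, with 1 panel per gene, grey symbols for negative control and orange for miR-205 arrays, symbol shape for the replicate number, and the mean and SD of 3 arrays to the right of each set. Every panel spans the same 1.5 log2 units. The groups do not overlap for KLF2, KLF3, KLF4, KLF5, KLF11 and KLF12, and control replicate 2 lies at the miR-205 level for KLF6 and KLF10.

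KLF12, a CtBP-dependent repressor first described as a repressor of the AP-2 alpha gene, stood at 9.79, 9.69 and 9.67 on the miR-205 arrays and at 10.22, 10.25 and 10.36 on the control arrays. All miR-205 arrays were therefore below all control arrays, and control replicate 2 was no exception. The means were 9.72 ± 0.06 and 10.28 ± 0.08 (SD, n = 3 each). KLF12 fell by 0.56 ± 0.07 (log2 difference ± SE, 95% interval -0.71 to -0.41), a level 1.47-fold higher in the control, with an adjusted p of 0.00052 by limma. Among 2586 genes that were lower, 528 fell at least as far as KLF12. Leaving out negative control replicate 2 gave -0.57 ± 0.07 (limma adjusted p = 0.000785). It passed in each of the 15 other settings that were run, with differences between -0.59 and -0.51.

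KLF3, the other CtBP-binding repressor among the 10 genes and a factor of blood and fat cell differentiation, stood at 11.16, 11.00 and 11.02 with miR-205 and at 11.30, 11.22 and 11.23 with the control. The groups did not overlap, but the gap between the nearest arrays was small. The difference was -0.19 ± 0.07 (95% interval -0.34 to -0.04, limma adjusted p = 0.0634), so KLF3 did not pass. It passed without miR-205 replicate 1 (-0.24, limma adjusted p = 0.0475), and with dim genes left out (0.0389), cyclic loess (0.0419) or a robust variance with a trend (0.0191). The antisense transcript KLF3-AS1 was dim, with a difference of -0.08 ± 0.08 (limma adjusted p = 0.474).

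Of the activating members, KLF6 differed most between arrays. KLF6, a growth-suppressing factor in prostate cells, stood at 9.91, 9.96 and 9.84 with miR-205 and at 9.05, 9.98 and 9.36 with the control. The miR-205 arrays lay close together, and control replicate 2 was the highest of all 6 arrays. Over all arrays the difference was 0.44 ± 0.19 (95% interval -0.0008 to 0.88, limma adjusted p = 0.133). KLF6 rose by 0.70 ± 0.10, which is 1.63-fold, without negative control replicate 2 (limma adjusted p = 0.00102). With array weights it was 0.54 (limma adjusted p = 0.0325), and without negative control replicate 1 it was 0.24.

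KLF2, known from endothelial cells and T cells, where it is induced through ERK5 and MEF2, stood at 8.41, 8.49 and 8.49 with miR-205 and at 8.27, 8.41 and 8.12 with the control. The groups touched but did not overlap, and control replicate 2 again lay at the top of its group. The difference was 0.20 ± 0.08 (95% interval 0.02 to 0.38, limma adjusted p = 0.0983). KLF2 rose by 0.27 ± 0.07, or 1.21-fold, without negative control replicate 2 (limma adjusted p = 0.0208), and with array weights the difference was 0.23 (0.0445). With negative control replicate 3 left out it was 0.13 (limma adjusted p = 0.264).

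KLF5, an activator of proliferation in basal epithelial cells, stood at 11.95, 11.94 and 11.96 with miR-205 and at 11.84, 11.84 and 11.78 with the control. Its groups were narrow and apart, and the difference was 0.13 ± 0.06 (95% interval 0.002 to 0.26, limma adjusted p = 0.127). Among the 15 other settings it passed with a robust variance with a trend (0.0327) alone, and it was 0.08 after repeated quantile normalization (0.314). In the RefSeq annotation KLF5 and KLF12 lie on chromosome 13 with 11 genes between them, 0 of them protein-coding. Their differences had opposite signs, though that of KLF5 did not pass.

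KLF4, a factor of epithelial differentiation and of reprogramming to pluripotency, stood at 9.43, 9.32 and 9.23 with miR-205 and at 9.43, 9.46 and 9.46 with the control. The highest miR-205 array of KLF4 lay only just under the lowest control array. The difference of -0.13 ± 0.07 did not pass (95% interval -0.28 to 0.03, limma adjusted p = 0.211), and it lay between -0.18 without miR-205 replicate 1 and -0.08 without miR-205 replicate 3. KLF7, which is known from neurons, stood at 9.79, 9.62 and 9.74 with miR-205 and at 9.70, 9.75 and 9.87 with the control. The arrays of KLF7 were intermixed, and its difference was -0.06 ± 0.07 (95% interval -0.22 to 0.11, limma adjusted p = 0.613). Over the 15 other settings the KLF7 difference lay between -0.09 and -0.01.

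KLF10, a SIN3A-binding repressor induced by TGF-beta, stood at 12.49, 12.43 and 12.32 with miR-205 and at 11.71, 12.44 and 11.67 with the control. Control replicate 2 was within the range of the miR-205 arrays for KLF10, and just above that range for KLF6. For both genes the other controls were well below it. The difference over all arrays was 0.48 ± 0.18 (95% interval 0.06 to 0.89, limma adjusted p = 0.087). Without negative control replicate 2 KLF10 rose by 0.73 ± 0.07, or 1.66-fold (limma adjusted p = 0.000222), and with array weights the difference was 0.57 (0.0186). It was 0.36 without negative control replicate 1 (limma adjusted p = 0.25) and 0.34 without negative control replicate 3 (0.262).

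KLF11, the closest relative of KLF10 and likewise TGF-beta-inducible, did not follow it. KLF11 stood at 9.65, 9.63 and 9.55 with miR-205 and at 9.68, 10.19 and 9.81 with the control. Control replicate 2 was the highest array here too, while the miR-205 arrays were the lowest. The difference was -0.28 ± 0.12 (95% interval -0.56 to -0.01, limma adjusted p = 0.117), and it shrank to -0.13 ± 0.07 (0.191) without negative control replicate 2. With negative control replicate 1 left out it was -0.39 and passed (limma adjusted p = 0.0487). KLF9, a hormone- and circadian-responsive member, stood at 6.44, 6.35 and 6.50 with miR-205 and at 6.43, 6.39 and 6.34 with the control. KLF9 was close to 6.12, the 95th percentile of olfactory receptor genes, which serves here as a limit for dim genes, so a change of KLF9 could be missed. Its difference was 0.04 ± 0.06 (95% interval -0.10 to 0.19, limma adjusted p = 0.676), and over the 15 other settings it lay between 0.01 and 0.08.

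**Figure D2:**
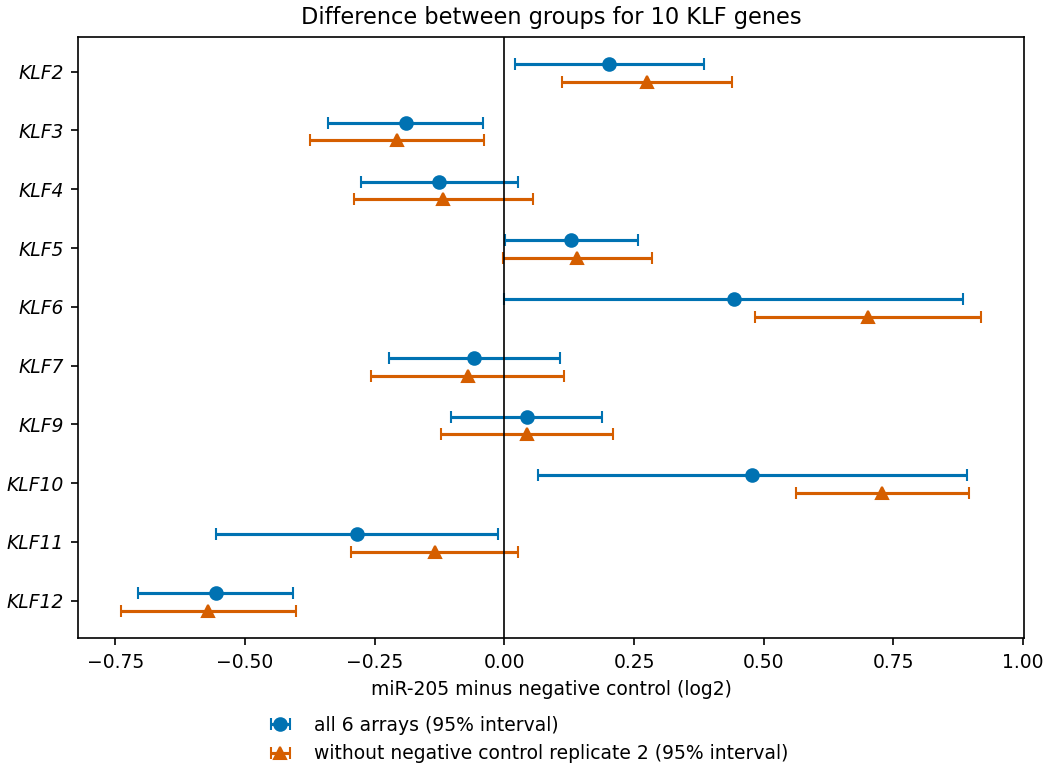
Difference between miR-205 and negative control arrays (log2, with 95% intervals from limma) for the 10 KLF genes, with blue circles for all 6 arrays and orange triangles for the fit without negative control replicate 2. KLF6 moves from 0.44 to 0.70 and KLF10 from 0.48 to 0.73 when that array is left out, while KLF12 stays at -0.56 and -0.57.

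Relative to the mean of control replicates 1 and 3, control replicate 2 was higher by 0.78 for KLF6, 0.75 for KLF10, 0.45 for KLF11 and 0.22 for KLF2. For the other 6 members it lay between -0.05 and 0.03. At least 0.5 above the other controls, a step chosen after the values were seen, were 2 of the 10 KLF genes, against 1.05% of all genes. In the list of immediate-early response genes, which answer signals without new protein synthesis, 15 of 22 measured genes were at least 0.5 higher in that array. Of these 22 genes 12 rose and 0 fell with miR-205 (limma, adjusted p under 0.05), against 12.6% higher and 14.0% lower over all genes. At an unadjusted p under 0.05 by limma, 15 rose and 0 fell, against 3295 higher and 3670 lower of all 18417 genes. The median difference of the 22 genes was 0.75. Without negative control replicate 2, 19 rose and 0 fell, against 14.5% and 15.6% of all genes. With any other single array left out, 8 rose. EGR1 stood at 10.13 to 10.61 with miR-205 and at 7.57, 8.57 and 7.87 with the control, a rise of 2.40 ± 0.23 (limma adjusted p = 0.000192). NR4A2, an orphan nuclear receptor, rose by 2.60, NR4A3 by 0.50 and FOS by 0.65. The part of the state of control replicate 2 in the KLF2, KLF6 and KLF10 values was not tested beyond leaving the array out.

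**Figure D3:**
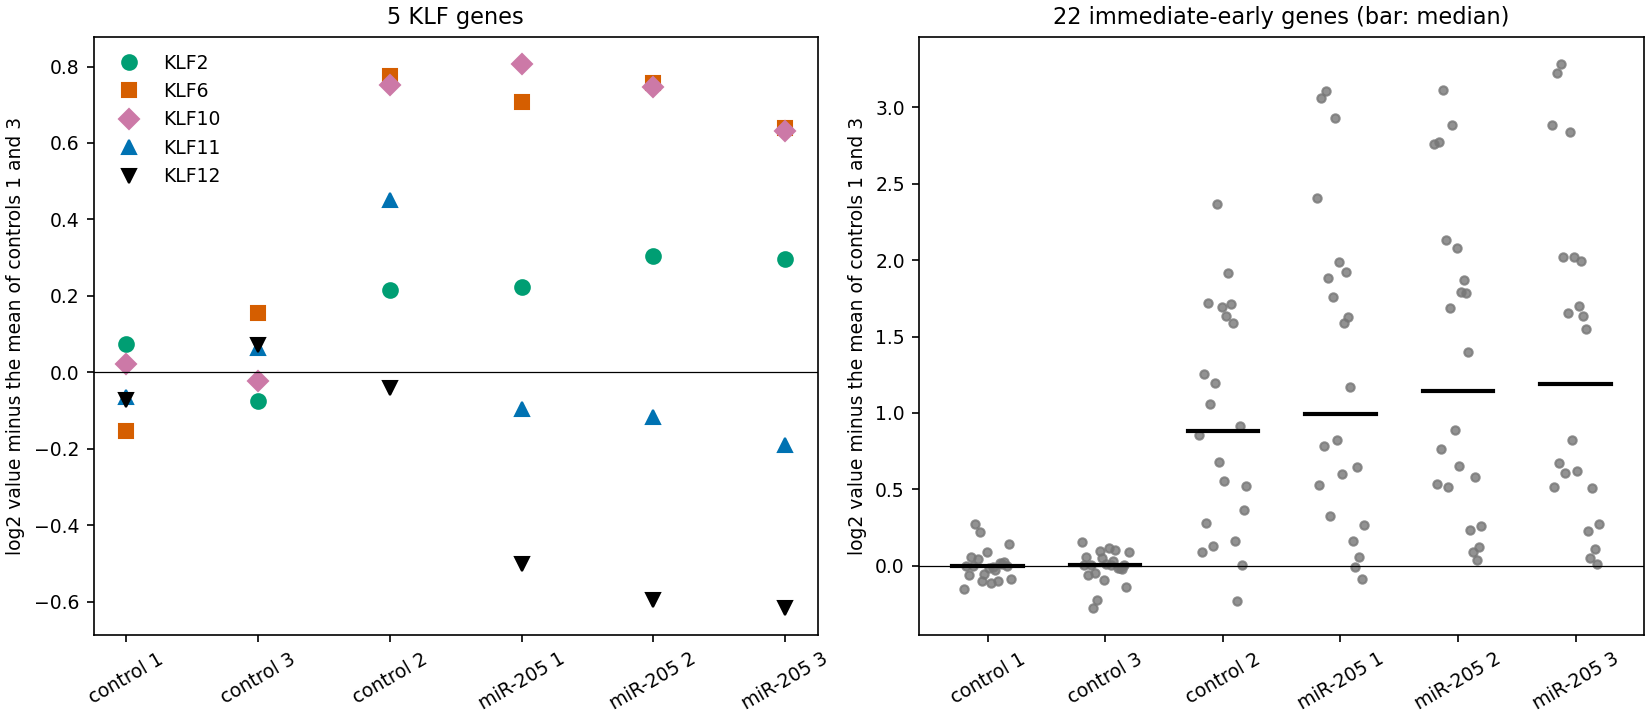
Log2 value of each array minus the mean of negative control replicates 1 and 3, for 5 KLF genes (left, symbols by gene) and for 22 immediate-early genes (right, grey points, black bars for medians). In control replicate 2, KLF6 is 0.78, KLF10 0.75 and KLF11 0.45 above the other controls, and the median immediate-early gene is 0.88 above them; KLF12 has no such shift there.

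The 3 members that rose without negative control replicate 2 were looked up among RefSeq promoter windows (GRCh38.p14, 250 bases before to 50 after a start), and KLF2 and KLF6 had an entry. Windows on the chromosome of KLF10 were left out before the lookup, so KLF10 could not have an entry and its promoter was not examined. Both are shown without the bases after the start, 5′ to 3′ on the gene's strand, with GC boxes (GGGCGG, either strand, matches may overlap) and the MEF2 element in capitals.
KLF2 (chr19:16324576-16324825, plus strand): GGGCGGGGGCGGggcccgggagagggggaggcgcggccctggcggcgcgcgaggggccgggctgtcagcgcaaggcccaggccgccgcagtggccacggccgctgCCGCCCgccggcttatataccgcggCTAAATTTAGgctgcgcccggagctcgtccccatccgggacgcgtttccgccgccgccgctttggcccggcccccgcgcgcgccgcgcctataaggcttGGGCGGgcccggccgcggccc
KLF6 (chr10:3785210-3785459, minus strand): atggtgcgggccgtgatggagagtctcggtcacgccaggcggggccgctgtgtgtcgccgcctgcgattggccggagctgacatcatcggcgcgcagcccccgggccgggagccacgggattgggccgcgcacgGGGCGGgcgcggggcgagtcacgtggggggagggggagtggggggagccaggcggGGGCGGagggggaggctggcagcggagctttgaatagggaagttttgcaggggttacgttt
The KLF2 window held a match to the MEF2 element, CTAAATTTAG, at positions -120 to -111 from the start. The KLF6 window held 0 matches to it. The MEF2 element, searched by name, was in 1 of the 16 member windows and in 0.572% of the 35116 windows searched. These are called all windows here and lack the chromosome of KLF10. GC boxes, to which KLF and SP proteins can bind, were found in 8 of the 16 member windows, which belonged to 7 of the 8 members with an entry, and in 45.0% of all windows. Both motifs were added after the sequences had been read.

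Of the other motifs searched, the cyclic AMP response element TGACGTCA was in 1 of the 16 member windows, of KLF11 (1.85% of all windows), where it overlapped a CACCC on its 3′ side. Its core TGACG was in 3 of the 16, of KLF4, KLF5 and KLF11 (24.6% of all windows). CACCC was in 8 of the 16 (59.9% of all windows) and TATAA in 4 (20.4%). The AP-1 motif TGANTCA was in 1, of KLF12 (7.71%), and the serum response factor CArG box in 1, of KLF7 (1.29%). The NF-kappa-B motif was in 0 of the 16 member windows and in 11.3% of all windows. All motifs were searched on both strands, and a gene with several starts had several windows, 4 each for KLF7 and KLF12. A match of letters is a description and not evidence of binding.

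Among 15 measured relatives of the KLF and SP family outside the 10 genes, 3 fell, 0 rose and 12 did not pass (limma, adjusted p under 0.05), against 14.0% lower and 12.6% higher over all genes. At an unadjusted p under 0.05, 5 were lower and 0 higher, against 3670 and 3295 of all 18417 genes. The median difference of the 15 relatives was -0.13. KLF13, a SIN3A-binding member of the KLF9 group, stood at 9.36, 9.35 and 9.16 with miR-205 and at 9.63, 9.68 and 10.06 with the control. KLF13 fell by 0.50 ± 0.11 (limma adjusted p = 0.0124), and without miR-205 replicate 3 this call was lost (0.051). The other probe set of KLF13, at a mean of 5.32, was under the limit for dim genes and says nothing on a change. SP3, a ubiquitous GC-box factor, fell by 0.26 ± 0.06 (limma adjusted p = 0.0135, and 0.0562 without miR-205 replicate 3 or 0.0503 without miR-205 replicate 2). KLF17, a gene known from germ cells and the early embryo, had means of 6.19 with miR-205 and 6.55 with the control, close to the limit for dim genes, and fell by 0.36 ± 0.07 (limma adjusted p = 0.00546). Of this list, 1 gene fell without miR-205 replicate 3.

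Of 8 genes for KLF corepressors 3 fell, 0 rose and 5 did not pass by limma, against 14.0% lower and 12.6% higher over all genes. At an unadjusted p under 0.05, 3 were lower and 0 higher, against 3670 and 3295 of all 18417 genes. CTBP2 and CTBP1, which encode the corepressors that KLF3 and KLF12 recruit, fell by 0.37 ± 0.06 and 0.30 ± 0.06 (limma adjusted p = 0.00358 and 0.0061), and SIN3A, the partner of KLF9, KLF10 and KLF11, fell by 0.29 ± 0.06 (0.00514). CTBP2 stood at 10.71 to 10.86 with miR-205 and at 11.12 to 11.22 with the control. These 3 calls held with each single array left out. Of 6 coactivator genes 2 fell, 1 rose and 3 did not pass (3 lower and 2 higher at an unadjusted p under 0.05). KAT2B, an acetyltransferase, fell by 1.02 ± 0.07 (limma adjusted p = 3.19e-05), with 10.79, 10.82 and 10.86 on the control arrays and 9.90, 9.72 and 9.79 with miR-205. EP300, the acetyltransferase p300, fell by 0.43 ± 0.07 (0.00244), and PRMT1, an arginine methyltransferase, rose by 0.22 ± 0.07 (0.0346, but 0.0711 with all probe sets tested and 0.113 without miR-205 replicate 2).

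Of 15 genes upstream of KLF transcription 4 rose, 2 fell and 9 did not pass. Over all genes 12.6% were higher and 14.0% lower. Their median difference was -0.01. SMAD3 and SMAD4, which carry TGF-beta signals to KLF10 and KLF11, fell by 0.55 ± 0.06 and 0.39 ± 0.07 (limma adjusted p = 0.000444 and 0.0036). BMAL1, a circadian activator, rose by 0.51 ± 0.08 (0.00183), and SRF, the serum response factor, rose by 0.41 ± 0.09 (0.01). SRF stood at 10.07, 10.40 and 10.13 on the control arrays and at 10.54 to 10.66 with miR-205. MEF2D and NR3C1, the glucocorticoid receptor gene, also rose, by 0.27 ± 0.07 and 0.29 ± 0.09 (0.0199 and 0.0417). Leaving out any array other than negative control replicate 2 ended the call of MEF2D (0.0535 to 0.064), and NR3C1 passed only with all arrays or without negative control replicate 3 among the fits with fewer arrays, and not with all probe sets tested (0.0943). With 1 array left out, 2 to 3 of the 15 rose, while 1588 to 2668 of all genes were higher, against 2320 with all arrays.

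Of 11 measured genes for ubiquitin ligases and proteases that act on KLF proteins, 2 fell, 0 rose and 9 did not pass. At an unadjusted p under 0.05 by limma, 2 were lower and 1 higher, against 3670 and 3295 of all 18417 genes. Over all genes 14.0% were lower and 12.6% higher at the adjusted threshold. WWP1, a ligase for KLF2 and KLF5, fell by 0.20 ± 0.06 (limma adjusted p = 0.0317), and SMURF2 by 0.22 ± 0.06 (0.0338). With the replicate number as a block WWP1 did not pass (0.0614), and with all probe sets tested neither did (0.0581 and 0.0682). Neither call held with every array left out in turn: without miR-205 replicate 2 WWP1 was at 0.119 and SMURF2 at 0.133. With 1 array left out 0 to 1 genes of this list fell. In those fits 1777 to 2881 of all genes were lower, against 2586 with all arrays.

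**Figure D4:**
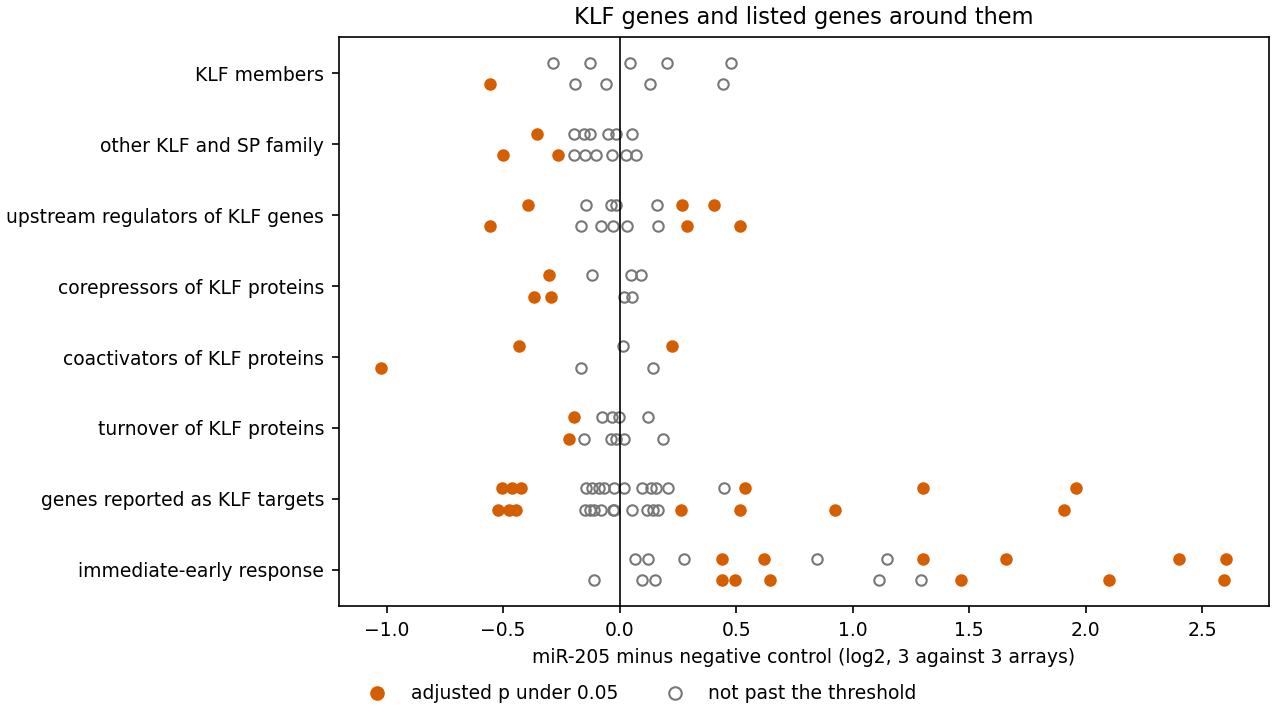
Difference between miR-205 and negative control arrays (log2) for the KLF members and for each gene of 7 lists around them, with filled orange points for an adjusted p under 0.05 and open grey points for the rest. Of the KLF members 1 is filled, at -0.56; the called corepressor genes all lie below 0 and the called immediate-early genes all above 0.

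Of 34 measured genes that are reported elsewhere as KLF targets, 7 were higher, 6 were lower and 21 did not pass, against 12.6% higher and 14.0% lower over all genes. Their median difference was -0.00287. With negative control replicate 2 left out, 12 were higher and 6 lower, against 14.5% and 15.6%. CDH1, which encodes E-cadherin and is reported as activated by KLF4 and KLF6, rose by 1.91 ± 0.06 (limma adjusted p = 2.34e-06). FGFBP1, reported as a KLF5 target, rose by 1.96 ± 0.08 (6.7e-06). EGFR, also reported under KLF5, stood at 9.95, 10.04 and 9.94 with miR-205 and at 10.42, 10.50 and 10.51 with the control, and it fell by 0.50 ± 0.06 (0.000612). PDGFA, a growth factor gene reported as activated by KLF5, fell by 0.52 ± 0.07 (0.00111). TFAP2A, the gene repressed by KLF12 in earlier work, stood at 11.05, 11.02 and 11.05 with miR-205 and at 10.78, 10.96 and 10.75 with the control, a difference of 0.21 ± 0.07 that did not pass (limma adjusted p = 0.0606, and 0.0111 without negative control replicate 2). LGALS3, the galectin gene that KLF3 represses in mice, rose by 0.54 ± 0.09 (0.00227). CDKN1A, a cell cycle inhibitor reported under KLF4 and KLF6, had a difference of 0.05 ± 0.08 (0.683). TFAP2A, LGALS3 and CDKN1A were picked from the list after their values were seen.

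The genes whose 6 values were most like those of KLF12, by Pearson correlation among 12405 genes that were not dim (uncharacterised loci, open reading frames, pseudogenes and small RNAs left out), were ZNFX1, PTPN21, PTPRK, VPS54 and TBC1D9. Their correlations were 0.999 to 1.00 over the 6 arrays, which share the same pair of groups, and 2037 of the genes compared had a correlation above 0.9. VPS54, part of a tethering complex of the trans-Golgi network, fell by 0.70, and PTPRK, a receptor phosphatase, by 0.57 (limma adjusted p = 0.000254 and 0.00041). PTPN21 fell by 0.61, ZNFX1 by 0.49 and TBC1D9 by 0.42. No KLF gene had a called rise over all arrays, so no gene was matched to one.

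**Figure D5:**
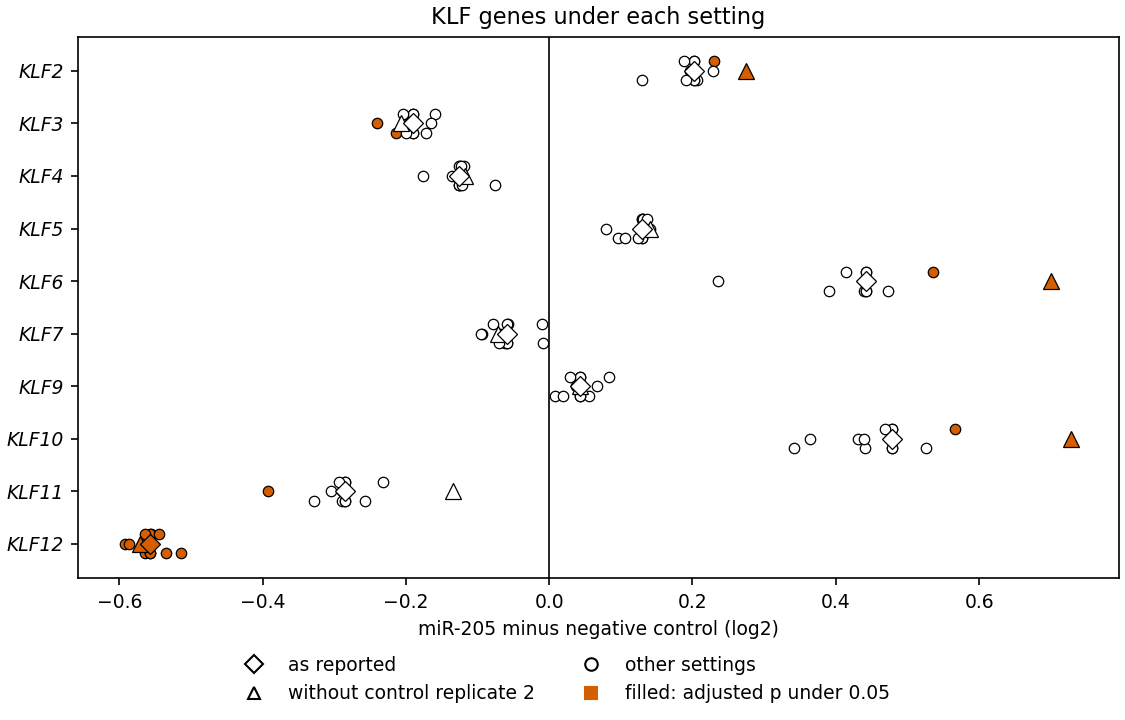
Difference between miR-205 and negative control arrays (log2) of each KLF gene under the reported fit (diamonds), without negative control replicate 2 (triangles) and under the other settings (circles), filled orange where the adjusted p was under 0.05. All symbols of KLF12 are filled, between -0.59 and -0.51; KLF2, KLF6 and KLF10 are filled in 2 settings each, KLF3 in 4, and KLF5 and KLF11 in 1 each.

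Markers of the line and of other cell types were read on the same arrays, where 12.6% of all genes were higher and 14.0% lower. KRT8, KRT18, VIM and the other 4 carcinoma line markers were all above the limit for dim genes, with 3 higher (EPCAM, KRT8, KRT18) and 2 lower (VIM, CD44). Their list means were 11.63 to 11.65 with miR-205 and 11.12 to 11.22 with the control. Of 6 basal prostate markers 5 were above the limit, 2 were higher (ITGB4, KRT15) and 1 lower (CD44, which is on both lists), and of 3 luminal markers 1 was above it and 1, the dim ACP3, was higher. Of 8 leukocyte markers 3 were above it and 0 passed in either direction. At an unadjusted p under 0.05 by limma, 0 were higher and 1 lower, against 3295 and 3670 of all 18417 genes. Of 9 fibroblast markers 5 were above the limit, with 1 higher, the dim LUM, and 1 lower, PDGFRA. The fibroblast list means were 5.67 to 5.82 with miR-205 and 5.66 to 5.76 with the control. Of 7 endothelial markers 3 were above it and 2 fell, PECAM1 by 0.98 and KDR by 0.94, and the list mean was 6.17 to 6.22 with miR-205 and 6.43 to 6.52 with the control. The third above the limit was CLDN5, at a mean of 7.53, and VWF, CDH5, TEK and ERG were under it. Of 6 neuroendocrine markers 3 were above the limit, with 1 higher, SYP, and 1 lower, the dim NCAM1. The neuroendocrine list means were 6.91 to 6.96 with miR-205 and 6.87 to 6.95 with the control. The part of other cell types in the KLF values was not tested.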

How the data were processed

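The deposited values were log2 intensities that the authors made by RMA (Affymetrix Expression Console, version 1.1.2), as the submitters' processing notes name it, and they were used without further normalization. The genome build and annotation behind them are not given in the sources used here. Of 33297 probe sets, 19460 carried 1 gene symbol in the probe table, and the brightest probe set per gene was kept (18417 genes). A two-sided limma test (version 3.58.1, R version 4.3.3) with lmFit and eBayes and no covariate gave p-values, adjusted over all genes at a threshold of 0.05. With 3 arrays per group, the number of arrays limits the precision. Genes were named as all 10 members, up to 4 called genes of smallest p per list, and the 5 genes most like the member with the largest called rise or fall; where 5 or fewer genes of a list passed in a direction, all of them could be named, and others are marked. The members and lists were chosen with earlier results of these data known. A planned comparison of KLF proteins was not run, since no protein sequences were at hand. Alternatives covered normalization, dim genes, probe set summary, variance model, array weights, the replicate block and each array left out.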

Additional observations from a re-analysis of the deposited data

How the results depend on the processing

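KLF12 was lower and passed in all 15 alternatives. The number of KLF members called was 1 as reported, 2 with cyclic loess or without dim genes, 3 with a robust variance with a trend and 4 with array weights, and 1 to 4 with 1 array left out. Members called higher numbered 0 as reported, 1 with the robust variance with a trend, 3 with array weights and 0 to 3 with 1 array left out. Members called lower numbered 1 as reported, 2 with cyclic loess, without dim genes or with the robust variance, and 1 to 2 with 1 array left out. Of all genes, between 4627 and 5465 were called when all arrays were kept and 3365 to 5549 with 1 array left out, against 4906. Leaving out an array leaves 2 in its group, whose spread is pooled with the other. With the replicate number as a block KLF12 had an adjusted p of 0.00277 by limma, and the members called stayed at 1, while the call of WWP1 was lost (0.0614). Same-numbered arrays had correlations of 0.06, 0.09 and 0.01 in their deviations from group means. Arrays of different numbers had correlations between -0.09 and 0.05. Whether the replicate numbers pair the arrays was not tested. Among the genes of the KLF lists and members, 0 called differences reversed sign. Calls of KLF2, KLF6 and KLF10 came only with negative control replicate 2 left out or with array weights. The cause of the changes between settings was not tested. KLF9 and KLF17 were close to the level of olfactory receptor genes, which limits what can be seen for them.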
